A study of Mus musculus with 6 samples.

Results

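The S100 and annexin effector genes described here are 7 genes of S100 proteins (S100a4, S100a6, S100a8, S100a9, S100a10, S100a11 and S100a13), the annexin genes Anxa1 and Anxa2, and Vim, which encodes the intermediate filament protein vimentin. They were chosen by name, and each of the 10 was found once among the 38854 genes of the array table. The samples were regulatory T cells (Treg), a CD4 lineage defined by the transcription factor Foxp3 that holds immune responses in check. There were 3 arrays of liver Treg, numbered 2, 3 and 7 in the labels, and 3 of spleen Treg, numbered 4, 5 and 6. All 6 came from Foxp3-GFP reporter mice, and both groups shared the same treatment, interleukin-2 bound to its antibody (IL-2/IL-2Ab), which enlarges the Treg pool, given on 3 days and followed by 3 days of pause before the cells were taken. Every value therefore describes Treg expanded by IL-2, and no unexpanded Treg were analysed here. The labels name the isolation both as flow sorting and as magnetic sorting, and give neither the age of the mice nor whether arrays shared an animal. The p-values thus reflect the variation among these arrays alone, part or all of which could be technical.

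S100 proteins are small calcium-binding proteins that work by docking onto partner proteins inside the cell, and several are also released as signals. Annexins bind membrane phospholipids when calcium rises, and S100a10 with Anxa2 and S100a11 with Anxa1 form known complexes that link membranes to the cytoskeleton. In lymphocytes, S100a4, S100a6, the annexins and Vim are commonly used as markers of activated, migratory effector and memory cells, which include effector Treg of tissues. S100a8 and S100a9 together form calprotectin, an abundant product of neutrophils and monocytes.

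None of the 10 genes passed the limma test of liver against spleen Treg across all genes (0 of 10 at a Benjamini-Hochberg adjusted p of 0.05, against 0.0206% of all genes). At an unadjusted p under 0.05 there was 1 of the 10, Anxa1, against 3.77% of all genes. S100a4, S100a6, S100a10, S100a11, S100a13, Anxa2 and Vim were measured well above background in both tissues, with differences between -0.05 and 0.18 on the log2 scale. S100a8 and S100a9 lay at the level of background in both. Anxa1 was higher on liver arrays 2 and 3 than on any spleen array, while liver array 7 lay among the spleen arrays. For the 9 genes other than Anxa1 the 95% confidence intervals of the difference ran at most from 0.791-fold to 1.40-fold. Larger differences in signal lay outside the interval of each of these 9 genes. Differences inside it cannot be told from none with 3 arrays against 3. For S100a8 and S100a9, at background, the intervals set no bound on a difference in expression. In RNA from whole samples, fewer cells carrying a transcript and less transcript per cell cannot be told apart.

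The values are log2 signals per transcript cluster, so a difference of 1 is a 2-fold change, and levels of different genes are not compared because each rests on its own probes. The array median over all genes ran from 5.99 to 6.25. The 23 background rows of the array, grouped by the GC content of their probes, averaged 4.09 to 4.55 per array, and their 95th percentile averaged over arrays was 7.20. That percentile is set by the probes richest in GC, and the GC content of the gene probes is not known here. The Treg markers stood at similar levels in the 2 tissues. Without other cells for comparison, that likeness does not measure how pure the sorted cells were. The Foxp3 level was 9.47 ± 0.14 in liver Treg and 9.49 ± 0.09 in spleen Treg (SD, n = 3 each). The 8 Treg and T cell identity genes, Foxp3 included, had differences from -0.12 (Tnfrsf18) to 0.09 (Cd4) with a median of -0.00198, 4 of the 8 were positive, and none passed limma. Il2ra, Ctla4 and Cd3e differed by 0.03, 0.03 and 0.00, Cd3d by -0.07 and Ikzf2 by -0.01.

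S100a4 and S100a6 lie close together in the S100 gene cluster of chromosome 3. S100a4 binds the heavy chain of non-muscle myosin and is linked to cell motility. Its log2 signals were 11.79, 11.91 and 11.68 on liver arrays 2, 3 and 7, against 11.82, 11.68 and 11.85 on spleen arrays 4, 5 and 6. The groups overlapped fully, the highest array being liver array 3 and the lowest arrays of both tissues standing at the same level. The difference was 0.01 (SE 0.11), or 1.01-fold with a 95% interval of 0.848 to 1.19. S100a6, which binds the adaptor Cacybp, measured 11.87, 11.95 and 11.70 in liver Treg, against 11.90, 11.76 and 11.74 in spleen Treg. It had both its highest and its lowest array in liver, and the difference of 0.04 (95% interval -0.21 to 0.29) was smaller than the range of 0.25 within the liver arrays. The sign of both differences was not stable: without liver array 3 they were -0.05 for S100a4 and -0.01 for S100a6, and without spleen array 5 the S100a4 difference was -0.04.

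S100a10 does not need calcium for its activity and pairs with Anxa2 at the plasma membrane. Its signals were 8.996, 9.05 and 8.87 in liver Treg, against 9.13, 8.95 and 8.97 in spleen Treg, a difference of -0.05 (95% interval -0.29 to 0.20). The highest array was from spleen and the lowest from liver, and the sign turned without liver array 7 or without spleen array 4. S100a11, the partner of Anxa1, measured 12.75, 12.85 and 12.75 in liver, against 12.76, 12.60 and 12.74 in spleen. The difference was 0.08 (95% interval -0.15 to 0.32), and spleen array 4 lay just above the lower liver arrays. S100a13, which takes part in the release of the growth factor Fgf1, had the widest ranges of these 5 S100 genes. It measured 9.57, 9.75 and 9.45 in liver, against 9.52, 9.70 and 9.27 in spleen, with a difference of 0.09 (95% interval -0.20 to 0.38). Its spleen range of 0.426 exceeded that difference, and without spleen array 6 the difference was -0.02.

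**Figure D1:**
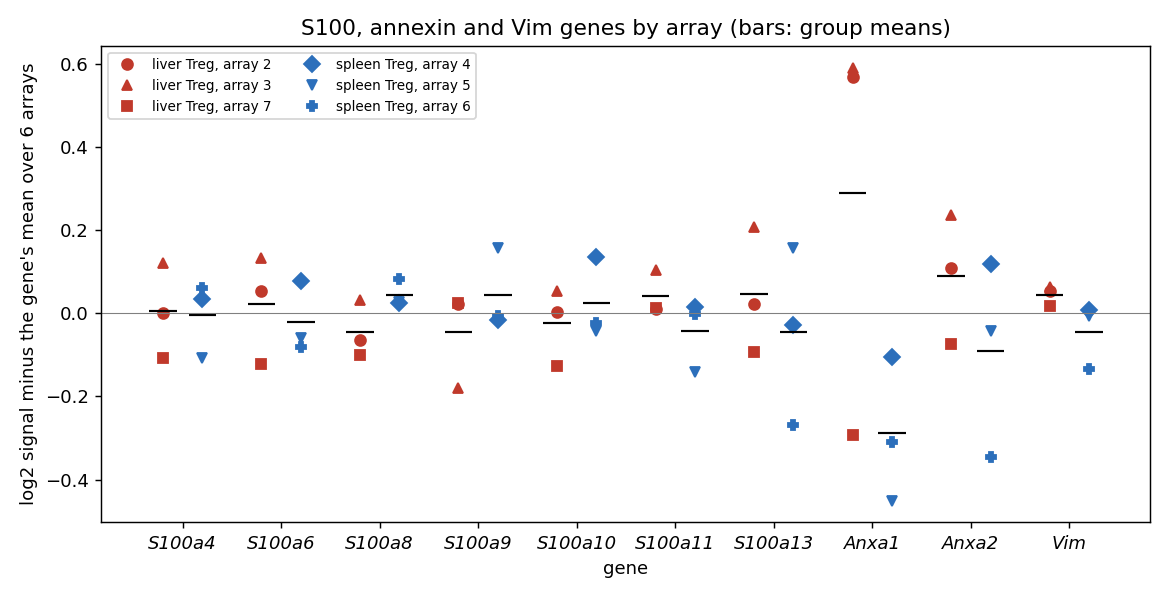
Log2 signal of each of the 10 genes on each array, minus the gene's mean over the 6 arrays, with liver Treg arrays in red at the left of each gene, spleen Treg arrays in blue at the right, and black bars for group means. The arrays of both tissues intermingle in 9 genes including Anxa1, where liver arrays 2 and 3 sit about 0.57 to 0.59 above the gene's mean and liver array 7 lies among the spleen arrays, and Vim has its 3 liver arrays above its 3 spleen arrays.

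S100a8 and S100a9 serve as the check on neutrophils and monocytes in the sorted cells, since those cells carry them in large amounts. S100a8 measured 3.24, 3.34 and 3.21 in liver Treg, against 3.33, 3.33 and 3.39 in spleen Treg. It was below the mean of the background rows on all 6 arrays, by 0.70 to 1.22. S100a9 measured 4.97, 4.77 and 4.97 in liver, against 4.93, 5.10 and 4.94 in spleen. It was above that mean on all 6 arrays, by 0.42 to 0.85, and above the 95th percentile of the background rows on 0 of 6. Both genes differed by -0.09 between the tissues, a value that has no reading as expression at these levels. Of 15 further neutrophil markers 0 had a mean above the percentile of 7.20, and their summed linear signal was 842 to 862 in liver and 761 to 929.7 in spleen. The 3 highest of them were Ly6g at 6.74 in liver and 6.53 in spleen, Prtn3 at 6.59 in both, and Mmp9 at 6.65 in liver and 6.29 in spleen, none of which passed. Ly6g measured 6.99, 6.85 and 6.39 on liver arrays 2, 3 and 7, against 6.52, 6.55 and 6.53 in spleen. Mmp9 was the 1 of the 15 with all liver arrays above all spleen arrays, and 1 had them below, beside 3.11% and 3.09% of all genes. Monocyte markers are given with Anxa1 below. The receptors through which extracellular S100a8 and S100a9 act gave no difference past the test either. Tlr4 measured 4.87 in liver and 4.83 in spleen, near the mean of the background rows, where a difference has no reading as expression. Ager measured 7.32 in liver and 7.35 in spleen, near the background percentile of 7.20.

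On chromosome 3 lie 14 S100 genes of the array, and each was set against the background rows. Of these, 5 had a mean above the background percentile, and all 5 are among the 10 genes described here. S100a4 and S100a6 stand with S100a5 between them, which averaged 4.59 in liver and 4.77 in spleen. S100a8 and S100a9 follow a short way on, after S100a7a. None of the other 10 S100 genes of the array, wherever they lie, had a mean above the percentile, and none passed limma. S100a3, S100a1, S100g and S100a16 had the highest means of these, and differed by 0.03, -0.06, -0.07 and -0.08. In S100a7a the liver arrays (5.17, 5.24 and 5.41) lay above the spleen arrays (4.92, 5.10 and 5.16), at a level below the background percentile, with a difference of 0.21 (SE 0.12).

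**Figure D2:**
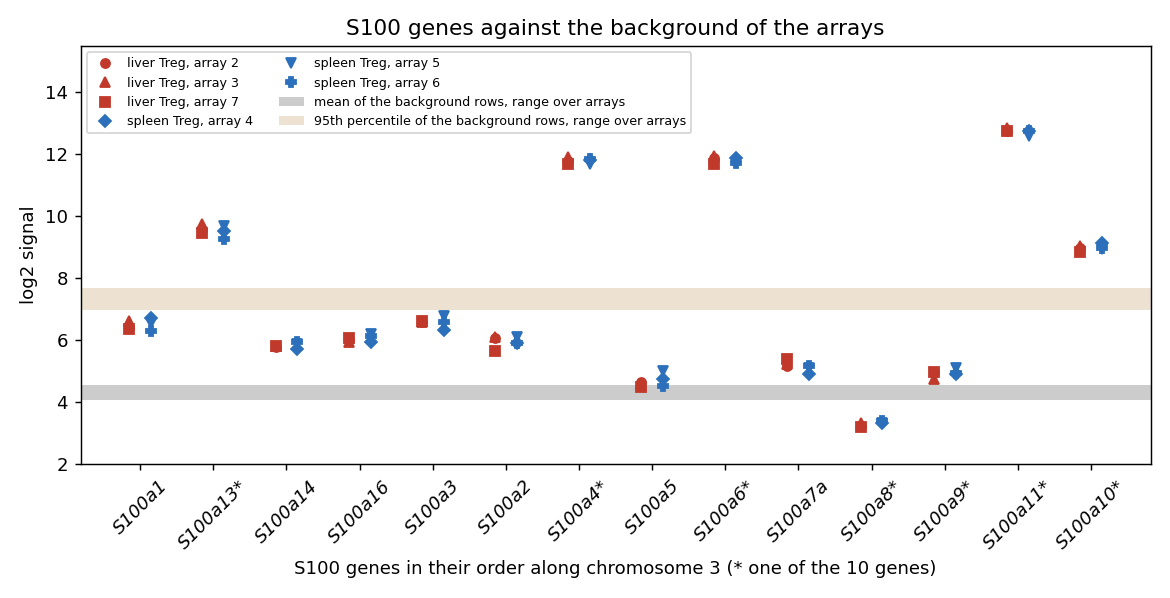
Log2 signal of the 14 S100 genes of chromosome 3 in their order along it, per array, with liver Treg in red at the left and spleen Treg in blue at the right of each gene, and bands for the mean (grey) and the 95th percentile (tan) of the background rows over the arrays. S100a13, S100a4, S100a6, S100a11 and S100a10 lie above both bands on every array, S100a8 lies below both, and the tissues overlap in these 6 genes.

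Shown are the 250 bases upstream of the transcription start of S100a8, at background, and S100a4, above background in the same cluster. Those of Anxa1, the gene with the largest difference, are shown too. They come from the RefSeq promoter table for GRCm38.p6, which held 9 of the 10 genes (not S100a10). Capitals mark matches on either strand to a TATA box (TATAAA) or to a C/EBP motif (TTNNGNAA), C/EBP factors being known regulators of myeloid genes, and positions count back from the transcription start.
S100a8, chr3:90668821-90669070, plus strand: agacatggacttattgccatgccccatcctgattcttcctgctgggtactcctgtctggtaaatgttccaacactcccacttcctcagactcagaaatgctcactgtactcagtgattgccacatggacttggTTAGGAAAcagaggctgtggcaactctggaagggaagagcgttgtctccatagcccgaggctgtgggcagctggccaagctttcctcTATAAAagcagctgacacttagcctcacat
S100a4, chr3:90603520-90603769, plus strand: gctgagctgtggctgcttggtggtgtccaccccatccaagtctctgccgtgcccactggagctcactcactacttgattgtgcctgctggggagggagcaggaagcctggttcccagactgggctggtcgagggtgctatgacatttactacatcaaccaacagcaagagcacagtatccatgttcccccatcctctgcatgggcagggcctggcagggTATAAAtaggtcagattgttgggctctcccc
Anxa1, chr19:20390672-20390921, minus strand: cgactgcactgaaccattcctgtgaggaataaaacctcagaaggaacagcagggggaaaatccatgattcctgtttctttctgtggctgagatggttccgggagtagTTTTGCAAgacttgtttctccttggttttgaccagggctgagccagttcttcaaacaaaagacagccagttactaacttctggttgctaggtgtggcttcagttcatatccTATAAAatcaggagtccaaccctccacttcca
The TATA box match began at -30 in S100a8, -31 in S100a4 and -32 in Anxa1, and 12.3% of all 32536 different upstream sequences in the table held one anywhere. Of the other genes, Vim had a TATA match at -32 and Anxa2 at -17, and S100a6, S100a9, S100a11 and S100a13 had none. A C/EBP match stood in S100a8 at -117, in S100a9 at -236 and -130, in Anxa1 at -143 and in Vim at -46, and 36.8% of all sequences held one. The AP-1 motif TGANTCA, present in 6.73% of sequences, was found in S100a11 at -136 and -38 and in Anxa2 at -95. The motifs searched do not overlap each other at these matches. These matches describe the letters only.

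Anxa1 encodes a phospholipid-binding protein that is induced by glucocorticoids and, once released, dampens inflammation through formyl peptide receptors. It measured 7.39, 7.41 and 6.53 on liver arrays 2, 3 and 7, against 6.72, 6.37 and 6.51 on spleen arrays 4, 5 and 6. Liver arrays 2 and 3 stood at least 0.67 above the highest spleen array, and liver array 7 was level with the spleen mean, at a difference of -0.00280. The group means were 7.11 ± 0.50 in liver and 6.53 ± 0.17 in spleen (SD, n = 3 each), a difference of 0.58 (SE 0.20) or 1.49-fold, with a 95% interval of 1.10- to 2.03-fold. That difference had an unadjusted p of 0.0148 in limma, across all genes, and an adjusted p of 0.859, so Anxa1 did not pass. Without liver array 7 the difference was 0.87 (limma adjusted p = 0.0714), and without liver array 3 it was 0.43 (adjusted p = 1). The level of Anxa1 is also modest, since it exceeded the mean of the background rows by 1.82 to 3.14 and their 95th percentile on 2 of 6 arrays, liver 2 and 3. Its receptor genes Fpr1 and Fpr2 were at background, at 3.58 and 4.29 in liver and 3.82 and 4.32 in spleen.

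Most NK cell and dendritic cell markers had liver array 7 as the lowest liver array, as Anxa1 did. Liver arrays 2 and 3 were both above liver array 7 in 10 of 10 dendritic cell markers, 9 of 10 NK cell markers, 8 of 14 monocyte and macrophage markers, 4 of 6 B cell markers, 4 of 15 neutrophil markers and 0 of 2 CD8 T cell markers, against 52.2% of all genes and 76.6% of genes with a mean above the background percentile. Summed on the linear scale, the NK cell markers reached 4827 to 5777 in liver and 2439 to 3475 in spleen. Nkg7 had the highest mean of that list and so weighs most in the sum. The dendritic cell markers summed to 1144 to 1757 in liver and 809.6 to 1044 in spleen, and the monocyte and macrophage markers to 2036 to 2607 in liver and 1918 to 2199 in spleen. Of the NK cell markers, Klrc1 passed limma, at 1.56 (adjusted p = 0.0305). Nkg7 differed by 0.49, Gzma by 1.86 and Tyrobp by 1.27, none of which passed. Eomes differed by -0.12, Ncr1 by 0.38 and Klra8 by 0.24, with overlapping groups and means below the background percentile. In 7 of the 10 NK cell markers all liver arrays lay above all spleen arrays, beside 3.11% of all genes. Among dendritic cell markers Cd74 differed by 0.57, H2-Ab1 by 0.95 and H2-Aa by 0.94, and none passed. Differences ran from -0.12 to 1.88 in the NK cell list and from -0.06 to 1.08 in the dendritic cell list. Each list had 9 of 10 positive, beside 42.3% of all genes. Among monocyte and macrophage markers Ms4a6c differed by -0.05, Ly6c2 by 0.44 and Cd68 by 0.23. The 14 genes of this list ran from -0.29 to 1.39 with a median of 0.05, and 8 were positive. Lyz2, a lysozyme gene of monocytes and macrophages, was named after its values were seen and had the largest difference of the 14. It measured 8.16, 8.10 and 7.31 in liver, against 6.27, 6.74 and 6.37 in spleen. The difference was 1.39 (SE 0.20) and did not pass (limma adjusted p = 0.0659). The liver arrays of Lyz2 lay above all its spleen arrays, with liver array 7 the lowest of them. Of the CD8 T cell markers, Cd8a differed by 0.97 and Cd8b1 by 0.29, and neither passed. On liver array 7, minus each gene's spleen mean, Anxa1 stood at -0.00280. The marker medians there were 0.38 for NK cells, 0.36 for dendritic cells and -0.01 for monocytes and macrophages. They were 0.01 for neutrophils, 0.02 for B cells and 0.59 for CD8 T cells. The part of these cell types in the Anxa1 values was not tested.

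**Figure D3:**
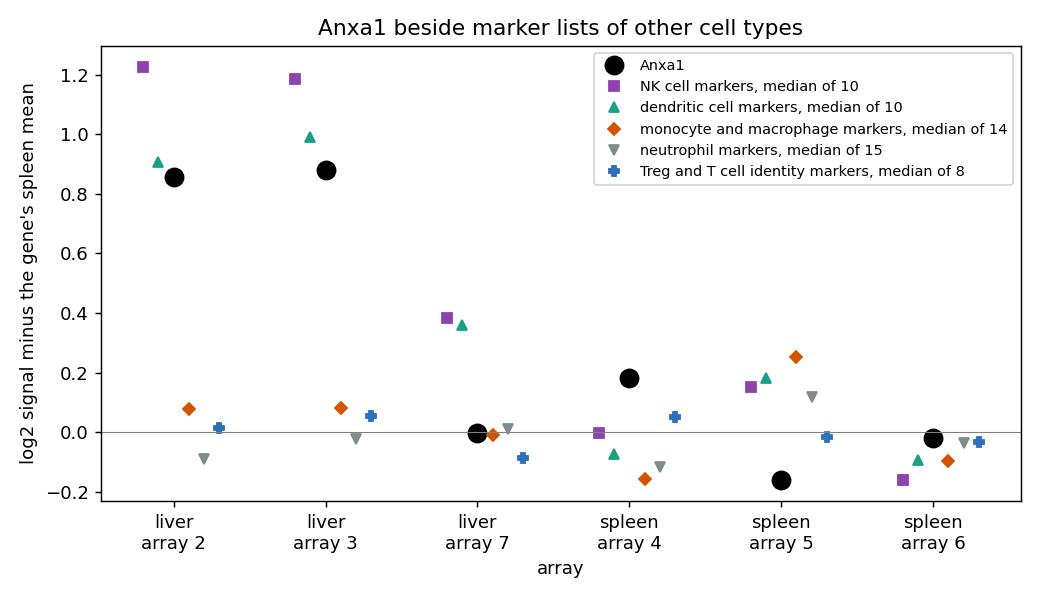
Log2 signal of Anxa1 on each array minus its spleen mean (black circles), beside the median over marker genes of NK cells (10), dendritic cells (10), monocytes and macrophages (14), neutrophils (15) and Treg and T cells (8), each gene taken minus its own spleen mean. Anxa1 stands at 0.86 and 0.88 on liver arrays 2 and 3 and at 0.00 on liver array 7, while the NK cell median is 1.23, 1.18 and 0.38 on the same arrays.

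Anxa2, which with S100a10 gathers plasminogen and its activators at the cell surface, measured 9.88, 10.01 and 9.70 in liver Treg, against 9.89, 9.73 and 9.43 in spleen Treg. The groups overlapped, spleen array 6 being the lowest by a clear step. The difference was 0.18 (SE 0.14), or 1.13-fold with a 95% interval of 0.919 to 1.40, and it was 0.05 without spleen array 6. Of the 10 other annexin genes 0 passed limma, and 5 had a mean above the background percentile. Of the 10, 7 had a positive difference, beside 42.3% of all genes and 58.4% of genes above the percentile. The 4 with the highest means were Anxa6 at 11.88 in liver and 11.77 in spleen, Anxa5 at 10.36 in liver and 10.24 in spleen, Anxa4 at 8.94 in liver and 8.74 in spleen, and Anxa11 at 8.23 in liver and 8.20 in spleen. Anxa5 is the protein used to stain dying cells, and Anxa6 is the longest annexin, with a doubled core. Their differences ran from 0.03 to 0.20, each smaller than its standard error times 2. In none of the 10 did the groups separate, beside 3.11% of all genes with liver higher and 3.09% with liver lower.

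Vim was the 1 gene of the 10 whose groups did not overlap, with liver higher, against 3.11% of all genes that did so in this direction and 5.56% of the 11501 genes with a mean above the background percentile. None of the 10 separated with liver lower, which 3.09% of all genes did, but S100a10 did so after cyclic loess and S100a8 without liver array 3. The share of all genes was not counted under those settings. Vim measured 11.55, 11.56 and 11.51 in liver, against 11.50, 11.49 and 11.36 in spleen. Only 0.00995 lay between the lowest liver and the highest spleen array, and the difference was 0.09 (SE 0.11), or 1.06-fold with a 95% interval of 0.906 to 1.25 (limma adjusted p = 1). The separation was not present after array medians were subtracted or after quantile normalization. Among 12 other intermediate filament and lamin genes, which build the cytoskeleton and the nuclear lining, 0 passed and the median difference was -0.02. Lmnb1, a B-type lamin, had separate groups, at 9.14, 9.10 and 9.09 in liver against 8.78, 8.78 and 8.48 in spleen. Its difference of 0.43 (SE 0.12) did not pass (limma adjusted p = 0.493). Plec, Lmnb2 and Lmna differed by 0.07, -0.01 and -0.01.

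**Figure D4:**
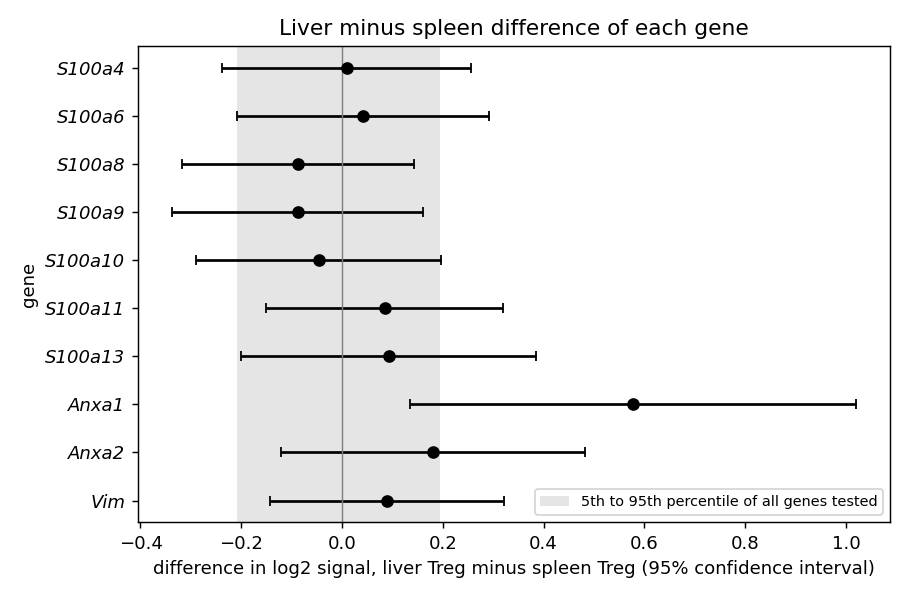
Difference in log2 signal, liver Treg minus spleen Treg, of each of the 10 genes with its 95% confidence interval from limma, over a grey band from the 5th to the 95th percentile of all genes tested (-0.21 to 0.19). The 9 genes other than Anxa1 have points inside the band and intervals that span 0, and the Anxa1 point lies at 0.58.

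As a set the 10 genes had a median difference of 0.06, with 7 positive, beside a median of -0.02 over all genes tested, of which 42.3% were positive. The median of the 10 was -0.00110, with 5 positive, without liver array 3, and 0.03 without spleen array 5 or spleen array 6. Of genes with a mean above the background percentile 58.4% were positive, with a median of 0.02, and 6 of the 7 genes of the set above it were. Liver array 3 was the highest liver array in 9 of the 10 genes, beside 53.1% of all genes and 66.3% of genes above the background percentile. Liver array 7 was the lowest in 8, beside 52.2% of all genes and 76.6% of those above the percentile. Spleen array 4 was the highest spleen array in 6 of the 10, beside 23.3% of all genes and 53.0% of those above the percentile, and spleen array 5 in 2, beside 63.2% and 34.1%. The part of these shared array levels in the differences of single genes was not tested.

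Proteins that bind S100 proteins and annexins, or act as their receptors, gave 0 of 22 genes past limma, with a median of -0.02. Ahnak, the giant scaffold protein that S100a10 and Anxa2 bind, had liver arrays at 9.72, 9.66 and 9.65 and spleen arrays at 9.60, 9.63 and 9.53, which did not overlap, and a difference of 0.09. Myh9, the myosin chain that S100a4 binds, differed by 0.04, and the cell surface protein Bsg, a reported receptor of S100a9, by 0.10. Sugt1, a co-chaperone, differed by 0.06 and Cacybp by 0.19. In a list of 21 genes that often accompany S100a4 and S100a6 in effector lymphocytes 0 passed and 4 had an unadjusted p under 0.05, beside 3.77% of all genes. The list's median was 0.07, and 6 genes had all liver arrays above all spleen arrays and 1 below, beside 3.11% and 3.09% of all genes (5.56% above, of genes over the background percentile). The 4 genes with the highest means in it were Lgals1, Tmsb10, Crip1 and Cd48, which differed by 0.06, -0.08, 0.09 and 0.14. Of these, Cd48 is among the 6 with all liver arrays above all spleen arrays. The chemokine receptor gene Ccr2 measured 10.24, 10.35 and 10.03 in liver, against 9.86, 9.46 and 9.87 in spleen, a difference of 0.48 (SE 0.14, limma adjusted p = 0.581). Actn1, an actin crosslinker, measured 7.82, 7.95 and 7.76 in liver, against 8.33, 8.39 and 8.05 in spleen, a difference of -0.41 (SE 0.12, limma adjusted p = 0.608). Myo1f, an unconventional myosin of leukocytes, differed by 0.29 (SE 0.11). Ccr2, Actn1 and Myo1f were named for the largest differences without overlap in this list, so their size follows from that choice. None of them passed the test across all genes.

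**Figure D5:**
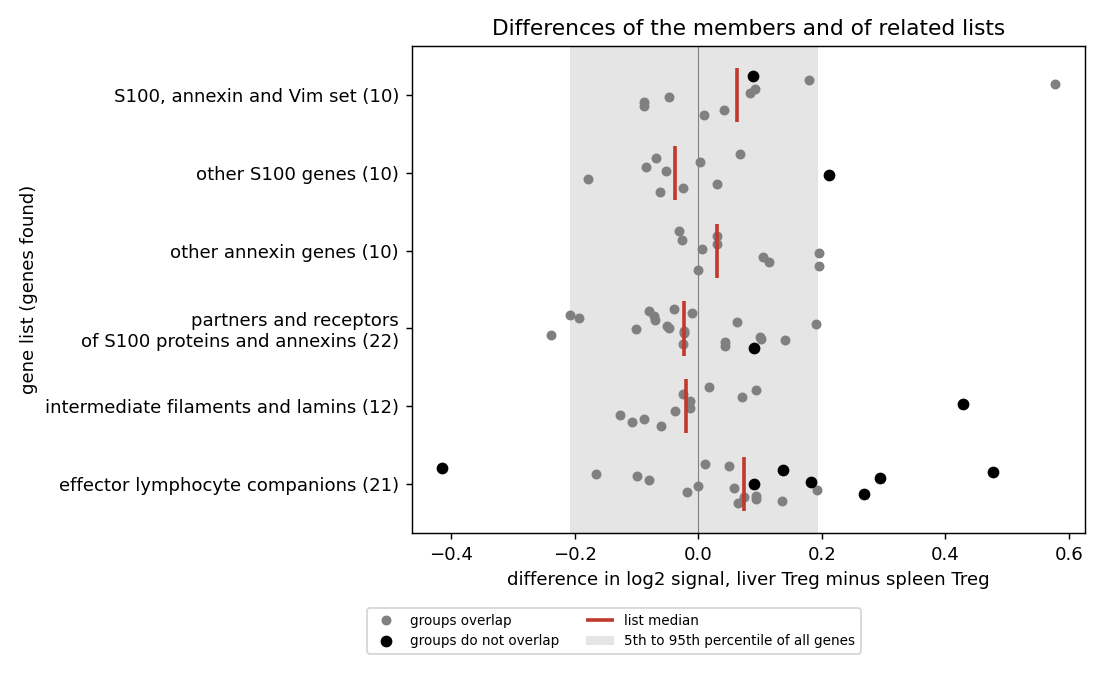
Difference in log2 signal, liver Treg minus spleen Treg, of each gene of the 10 described here and of 5 related lists, with black points where the arrays of the tissues do not overlap, red bars for list medians and a grey band from the 5th to the 95th percentile of all genes. List medians lie between -0.04 and 0.07, and the genes farthest out are Anxa1 at 0.58, Ccr2 at 0.48, Lmnb1 at 0.43 and Actn1 at -0.41.

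The genes most like each of 6 of the set over the 6 arrays were found by the root mean square (RMS) difference of values centred on each gene's mean, among 7548 named genes above the background percentile. For S100a4 they were Cd3g, Rbm4b and Ints6, with RMS differences of 0.0132, 0.0220 and 0.0245 where the median gene had 0.122. For S100a6 they were Ifih1, Wdr44 and Eif1b (0.00819, 0.0130 and 0.0135), for Anxa2 Cdkn2aipnl, Arl6ip6 and Gemin2 (0.0199, 0.0213 and 0.0257), and for Vim Ttc39b, Timm50 and Atf1 (0.0148, 0.0152 and 0.0179). Those of S100a8, at background itself, were Fam222b, Zfp748 and Cox14 (0.0199, 0.0278 and 0.0279). The nearest to Anxa1 were the homing receptor gene Gpr15, the eotaxin receptor gene Ccr3 and the mitotic kinesin gene Kif14 (0.134, 0.134 and 0.147). These RMS differences were larger, but so was the RMS of Anxa1 about its own mean. That was 0.421, beside 0.0621 (S100a8) to 0.186 (Anxa2) for the others, and the median gene lay at 0.377 from Anxa1. Gpr15 measured 8.71, 8.74 and 7.84 in liver, against 8.17, 8.06 and 8.03 in spleen, and so shared with Anxa1 the low value of liver array 7. With 6 arrays and so many candidates these are descriptions, and close matches to a nearly flat profile are many.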

How the data were processed

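RNA of 3 liver and 3 spleen Treg samples was hybridised to Affymetrix arrays, named Mouse Gene ST 2.0 in the labels' protocols and MTA-1_0 in the file headers. The deposited values are log2 signals, which the authors obtained by RMA (Affymetrix Expression Console is also listed) per the submitters' processing notes, with versions unstated. RMA shrinks the differences of genes near background. Genome build and annotation release were not given in the sources used here. Rows with 1 symbol were kept (39514 of 72688), and the row with the highest mean stood for a symbol, which gave 38854 genes. The second deposited table held the same values (largest difference 0). No 2 arrays were copies: within tissues they differed by an RMS of 0.149 to 0.281 over all genes.

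Liver was compared with spleen with limma 3.58.1 in R 4.3.3 (lmFit, eBayes, two-sided, Benjamini-Hochberg over all genes, threshold 0.05, no covariate), with 95% intervals from the same fit. A single-gene exact permutation test of 3 against 3 cannot give a p under 0.1. The fit was tested on simulated data. The 10 genes and all lists were chosen with earlier results of these data known, so no p was adjusted over a list. Related lists were described by counts and medians. Named were the 10 genes, Foxp3, Il2ra, Ctla4, Cd4 and Cd3e, in each related list up to 4 genes of highest mean and 3 of largest difference without overlap, in marker lists up to 3 of highest mean and any called, and the 3 genes most like 6 of the set; of marker genes, only those beside a result are printed. Tlr4, Ager, Fpr1, Fpr2, Cacybp, S100a5, Lyz2, Eomes, Ncr1, Klra8, Cd8a, Cd8b1, Tnfrsf18, Cd3d and Ikzf2 were added after their values were seen. The other marker lists had median differences of 0.01 (hepatocyte), -0.05 (endothelial, stellate and fibroblast), 0.02 (bile duct epithelium), -0.17 (erythroid), 0.19 (B cell) and 0.63 (CD8 T cell).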

Additional observations from a re-analysis of the deposited data

How the results depend on the processing

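No paired analysis was possible because the labels do not say which liver and spleen arrays, if any, shared an animal. The number of the 10 genes past limma was 0 under all 14 alternatives, and the direction of S100a8, S100a9, S100a11, Anxa1, Anxa2 and Vim was the same in every alternative that tested them. With 1 array left out the differences ran from -0.0487 to 0.0662 for S100a4, -0.0140 to 0.113 for S100a6, -0.0854 to 0.00927 for S100a10 and -0.0187 to 0.194 for S100a13, so the sign of these 4 is not settled. They ran from -0.126 to -0.0600 for S100a8, -0.123 to -0.0204 for S100a9, 0.0355 to 0.113 for S100a11, 0.427 to 0.868 for Anxa1, 0.0526 to 0.284 for Anxa2 and 0.0442 to 0.115 for Vim. Leaving out dim genes by the lower 50% removed S100a8 and S100a9, and by the background percentile also Anxa1. The count of all genes called, 8, was 18 without the lower 50% by mean, 13 without genes at or under the background percentile, 27 with an intensity trend and robust eBayes, and 0 after subtracting array medians, after quantile normalization, after cyclic loess and without moderation of variances (1448, 2391, 2429 and 1090 genes at an unadjusted p under 0.05). It was 0 to 33 with 1 array left out: 15, 1 and 33 without liver array 2, 3 and 7, and 23, 0 and 19 without spleen array 4, 5 and 6. The cause was not tested. Of 10 genes, 3 had non-overlapping groups with liver higher without spleen array 4 and 2 without liver array 7. With liver lower, 1 had them after cyclic loess and 1 without liver array 3. The share of all genes was not counted under these settings, and groups with fewer arrays separate more readily. These counts are therefore not read as a result about the 10 genes. The list median of the other S100 genes moved to 0.07 without spleen array 5. Without genes at or under the background percentile, that of intermediate filaments and lamins moved to 0.25. Only 2 of its 12 genes were left. That of partners and receptors moved to 0.08, with 6 of its 22 genes left. Signals near the background rows (S100a8, S100a9, most other S100 genes) limit what their differences can show.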
